A study of Mus musculus with 12 samples.

Results

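Hox genes of paralog groups 4 and 5 were followed in ATAC-seq data, which record where chromatin is accessible to a transposase, from mouse embryonic stem cells (ESCs) differentiated towards motor neurons. The members were chosen by name: Hoxa4, Hoxb4, Hoxc4, Hoxd4, Hoxa5, Hoxb5 and Hoxc5, which are 7 of the 39 Hox genes and of 21938 protein-coding genes. Hox genes encode homeodomain transcription factors that lie in 4 clusters, in an order that matches the order of their expression along the body axis. Genes of groups 4 and 5 are known for roles in the posterior hindbrain and the cervical and brachial spinal cord, and genes at this end of the clusters are known to respond to retinoic acid (RA) through nearby response elements. In the HoxB and HoxD clusters a miR-10 gene lies near the group 4 gene.

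The labels gave 12 samples in 6 groups of 2. Embryoid bodies (EBs) before patterning and day 2 progenitors, the latter after 2 days of 1 µM RA and 0.5 µM of the Hedgehog pathway agonist SAG, came from the line Ainv15(iCre). All 4 day 4 groups had 4 days of RA and SAG. The groups iHoxc6, iHoxc9 and iHoxc10 came from the lines Ainv15(iFlag.Hoxc6), Ainv15(iFlag.Hoxc9) and Ainv15(iFlag.Hoxc10), in which a Flag-tagged transgene was induced by 48 h of doxycycline (Dox) at 3 µg/mL. The day 4 group without Dox (no Dox) came from Ainv15(iFlag.Hoxc6). The methods described cultures at this time as mostly postmitotic motor neurons with interneurons, and none of the 7 members was itself an induced transgene.

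One list of accessible domains, each a stretch with a start and an end, was made from both samples of a group. Values here therefore have no replicate error, no difference could be set against a spread between replicates, and read depth is unknown. The lists held 56232 to 94875 domains, and the no Dox list covered the most sequence of the 6. The no Dox list was also deposited in a later set of records and in another column layout, and it is named for day 6 although its label gives day 4, which was used. Record set, possible calling settings and any difference in day therefore cannot be told apart from the induction in each comparison with no Dox. The same holds for line in iHoxc9 and iHoxc10, whereas iHoxc6 and no Dox came from the same line. EBs and progenitors came from another line than every day 4 group. Line, and for no Dox also record set and layout, therefore cannot be told apart from time there. Nor can Dox itself be told apart from the induced transgene, since all induced groups and no other had it. In bulk samples, fewer cells with an open site and less opening per cell cannot be told apart. Promoters of 5 of 6 pluripotency markers held a domain in EBs and 1 of 6 did in each day 4 list, neural progenitor markers held one in 6 of 6 throughout, and motor neuron markers in 4 to 7 of 7. Lhx3, a determinant of motor neuron fate, lacked a promoter domain in EBs, no Dox, iHoxc6 and iHoxc9. Of 6 mesoderm and endoderm markers, 3 to 5 held a promoter domain, and their part in the results was not tested.

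The sequence feature shared by the HoxA, HoxB and HoxD members was a DR5 retinoic acid response element, a direct repeat of the half-site AGGTCA or GGGTCA or AGTTCA or GGTTCA with 5 bases between the half-sites. Exactly 3 matches, on either strand, lay in the 140057 bp examined around the 7 genes, 1 in each of these clusters, and each lay between the group 4 gene and the group 3 gene, in an intron of Hoxa3, Hoxb3 or Hoxd3 transcripts. They are shown because all 3 lay in accessible chromatin, in GRCm38 from RefSeq, 5′ to 3′ on the strand of the element. Capitals mark first a match to the PBX-HOX motif TGATNNAT and then the 2 half-sites.
Hoxa4, chr6:52175503-52175599, minus strand: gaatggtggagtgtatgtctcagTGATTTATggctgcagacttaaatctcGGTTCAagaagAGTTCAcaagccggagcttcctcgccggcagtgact
Hoxb4, chr11:96341186-96341282, plus strand: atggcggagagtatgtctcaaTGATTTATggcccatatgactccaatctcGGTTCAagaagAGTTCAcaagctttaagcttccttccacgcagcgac
Hoxd4, chr2:74741490-74741586, plus strand: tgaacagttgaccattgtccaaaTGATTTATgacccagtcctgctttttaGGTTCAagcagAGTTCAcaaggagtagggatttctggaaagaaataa

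The 17 bases of the element were identical between HoxA and HoxB, and the HoxD element differed from both by A9C, counted from 1 at its 5′ end. In the genome (chromosomes 1 to 19, X and Y) the 17 bases of HoxA and HoxB occurred 2 times and those of HoxD 1 time. The same PBX-HOX match, on the same strand, lay 19 bases before the element in HoxA and HoxD and 21 bases before it in HoxB. Of the 218562 sites made by merging overlapping domains of the 6 lists, 468 (0.214%) held a DR5 element and 9 (0.00412%) held one with a same-strand PBX-HOX match in the 50 bases before it. The pairing was looked for in all sites after it had been seen here. Among sites of like width (0.8 to 1.25 times), 0.809%, 0.780% and 0.824% held a DR5 element for the HoxA, HoxB and HoxD sites. A match is a description of letters and not of binding. No match to a DR2 element or to the CTCF core was found in the regions. Of their 101 merged sites 0 held either, against 0.172% and 2.53% of all sites, and such low shares leave few matches to expect. Only exact matches to a short pattern were counted, so the absence of a match does not show the absence of a CTCF site.

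The 3 elements lay 14122, 19598 and 12380 bp beyond the 3′ ends of Hoxa4, Hoxb4 and Hoxd4, and they differed in the lists that held them. The HoxA element lay inside a domain in all 6 lists, a domain 60 bp wide in EBs, 1299 in progenitors, 1610 in no Dox, then 1138 in iHoxc6, 824 in iHoxc9 and 1310 in iHoxc10. Along the strand of the element, the narrow EB domain began at its first base, so that a shift of 1 bp in the starts or ends decides whether it is held. The HoxB element lay in a domain in the 5 lists with RA and SAG, of 1149 bp in progenitors and 554 to 590 bp at day 4, while the nearest EB domain was 600 bp away. The HoxD element lay in a domain of 1497 bp in progenitors, 364 in no Dox and 1011 in iHoxc10. In iHoxc9 a domain of 26 bp held it, and in iHoxc6 none did, although one lay 37 bp away. In EBs the nearest domain to the HoxD element was 1117 bp away. Over all merged sites, 34.6% of those with a DR5 element and 13.9% of all were in each of the 5 lists with RA and SAG. These shares include sites that EBs held too: 11.2% of all merged sites were in all 6 lists and 2.77% in the 5 without EBs. They were not matched for width, and DR5 elements were more frequent among wide sites.

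**Figure D1:**
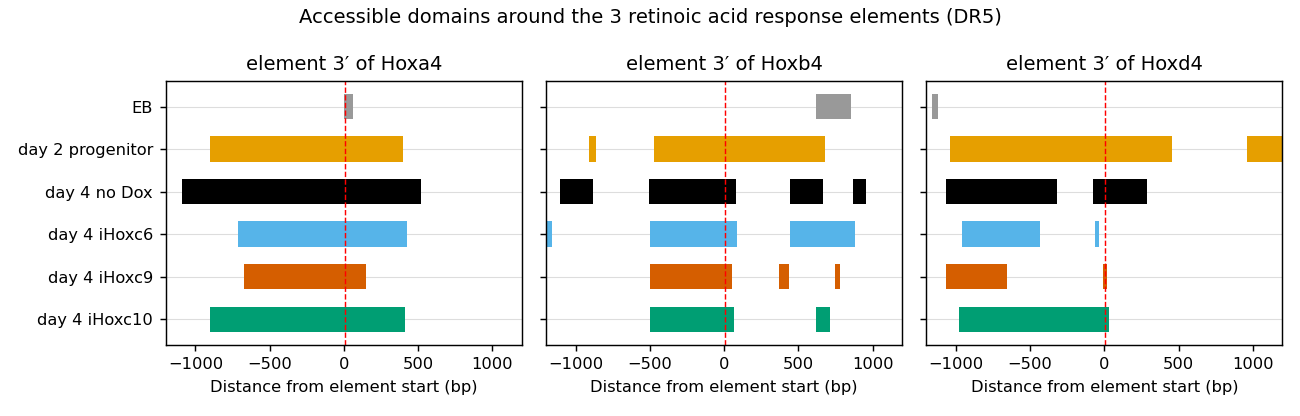
Accessible domains (bars) of each of the 6 lists around the DR5 elements that lie 3′ of Hoxa4, Hoxb4 and Hoxd4. The x axis gives the distance in bp from the start of the element, along its strand, and the dashed line marks the element; EBs hold it in HoxA alone, by a 60 bp domain, and in HoxD it is held by a 1497 bp domain in progenitors and a 26 bp domain in iHoxc9.

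The region of the members was taken as the genes, 1 kb on each side of their start sites and the stretches up to the coding sequence of the next Hox gene on each side. This coding boundary was used because long Hoxa3 and Hoxd3 transcripts run across the members. The regions were chr6:52172650-52206367 in HoxA, chr11:96300926-96344248 in HoxB, chr15:103011039-103036852 in HoxC and chr2:74706810-74744011 in HoxD. They held 23 domains in EBs, 50 in progenitors, 73 in no Dox and 69, 44 and 64 in iHoxc6, iHoxc9 and iHoxc10. Domains covered 2.46% of the regions in EBs, 16.2% in progenitors, 22.2% in no Dox and 20.4%, 10.5% and 22.8% in the 3 induced lists. Coverage was lowest in EBs in 4 of 4 clusters.

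Among the day 4 lists, iHoxc9 stood lowest and iHoxc10 was close to no Dox. Relative to no Dox, iHoxc6 had a covered length of 0.921, iHoxc9 of 0.476 and iHoxc10 of 1.03. Over the whole lists the same ratios were 0.833, 0.597 and 0.676. The iHoxc10 list was thus shorter than no Dox over the genome and not over these regions, where its ratio was 0.964 once the stretches between genes were left out. In EBs and progenitors the ratios were 0.111 and 0.731 in the regions and 0.775 and 0.864 over the whole lists.

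These ratios differed between clusters. In HoxB, iHoxc6 stood at 0.853, iHoxc9 at 0.364 and iHoxc10 at 0.798. In HoxD they were 1.06, 0.376 and 1.05, and in HoxA 0.874, 0.616 and 1.18. HoxC had 0.948, 0.593 and 1.19 in the same order. The ratio of iHoxc9 was the lowest of the 3 induced lists in each cluster, and iHoxc10 was above no Dox in HoxA, HoxC and HoxD but not in HoxB. Between genes, iHoxc9 covered 7.9% of the stretches against 19.1% in no Dox, while of the promoters it covered 42.8% against 58.5%.

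**Figure D2:**
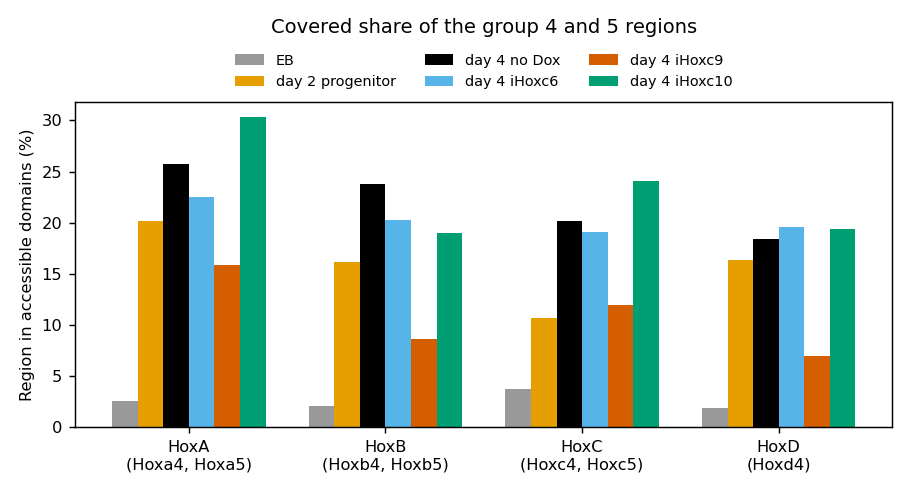
Share of the group 4 and 5 region of each Hox cluster that lay in accessible domains (y axis, %), for the 6 lists (bars, one list per group). EBs cover 1.86% to 3.77% of each region, and among the induced day 4 lists iHoxc9 covers the least in each cluster.

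The stretches towards group 3 and group 5 showed where iHoxc9 differed. Between Hoxd4 and Hoxd3, 33.5% was covered in progenitors, 30.7% in no Dox, 30% in iHoxc6 and 32.4% in iHoxc10, but 9.52% in iHoxc9 and 0.303% in EBs. Between Hoxb5 and Hoxb4, which holds the miR-10a gene, 22.3% was covered in no Dox, 17.5% in iHoxc6, 21% in iHoxc10 and 4.19% in iHoxc9. Between Hoxb4 and Hoxb3 the values were 19.8%, 19.1%, 11.4% and 5.29% in the same order. The stretch between Hoxd8 and Hoxd4 went another way, with 6.62% in no Dox and 6.55% in iHoxc9. Between Hoxa5 and Hoxa6 iHoxc9 covered 55.1% and no Dox 50.1%.

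Each of the 7 members had a domain in its promoter (the 1 kb on each side of a principal start site) in all 6 lists. Over all protein-coding genes the share with a promoter domain was 67.4% in EBs, 64.7% in progenitors, 63.7% in no Dox, 64% in iHoxc6, 61.1% with Hoxc9 and 60.7% with Hoxc10 induced. In EBs 4 of the 7 had a domain of at least 150 bp. The width of promoter domains separated the lists. All 7 had more promoter bases covered in progenitors than in EBs, as did 66.5% of all genes with an EB promoter domain. No member lacked a promoter domain in EBs, so none could gain one in progenitors, whereas 5.76% of all genes without one in EBs did. The median over the members was 186 bp in EBs, 1089 in progenitors, 1252 in no Dox, then 1381 in iHoxc6, 909 in iHoxc9 and 1249 in iHoxc10, against 462, 529, 593, 474, 324 and 397 bp over all genes. For Hoxd4 the bases at 2 principal start sites were summed, and with its downstream start alone the medians were 1191 bp in iHoxc6 and 1199 in iHoxc10, both below no Dox. In EBs the median of the members was thus below that of all genes, and in the other 5 lists above it.

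Against no Dox, fewer promoter bases were covered in iHoxc9 for 7 of 7 members, in iHoxc6 for 4 of 7 and in iHoxc10 for 5 of 7. Over all genes with a no Dox promoter domain the shares were 93.2%, 79.3% and 87.7%, so that the count for iHoxc9 followed the background. The members that had more in iHoxc6 or iHoxc10 than in no Dox were Hoxd4 and Hoxc5, and Hoxa4 was equal in iHoxc6. With its downstream start alone, Hoxd4 in iHoxc10 had 837 bp against 874 in no Dox, so that 6 of 7 members then had fewer.

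Hoxa4 (chr6:52189671-52191753, minus strand) had the greatest difference between EBs and progenitors. Its promoter held 69 bp of domain in EBs, 1672 in progenitors, 1673 in no Dox, then 1673 in iHoxc6, 1291 in iHoxc9 and 1622 in iHoxc10. In EBs these were 2 domains of which the wider had 36 bp, and neither held the start site, whereas 1 domain spanned it in progenitors, no Dox, iHoxc6 and iHoxc10. In iHoxc9 the promoter held 2 domains and the start base lay between them.

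Hoxb4 (chr11:96318267-96321638, plus strand), known for a role in blood stem cell expansion as well as in the hindbrain, had 403 bp in EBs, 1197 in progenitors, 1252 in no Dox, then 1191 in iHoxc6, 909 in iHoxc9 and 1199 in iHoxc10. The EB domain lay 241 to 643 bp inside the gene, and domains of progenitors, no Dox, iHoxc6 and iHoxc10 held the start site. In iHoxc9 it again lay between 2 domains. The merged Hoxb4 site of 2277 bp was the widest of HoxB.

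Hoxc4 (chr15:103034395-103036852, plus strand), the last gene of its cluster, had 69 bp in EBs, 698 in progenitors, 1191 in no Dox, then 1028 in iHoxc6, 569 in iHoxc9 and 713 in iHoxc10. Its start base was held by a domain in no Dox alone. In iHoxc9 the promoter held a domain that began 432 bp inside the gene. It shared with Hoxa4 the lowest promoter coverage in EBs.

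Hoxa5 (chr6:52201754-52204587, minus strand), a group 5 gene needed for lung and cervical skeletal development, had 512 bp in EBs, 1265 in progenitors, 1857 in no Dox, then 1463 in iHoxc6, 1713 in iHoxc9 and 1807 in iHoxc10. A domain held its start site in each of the 6 lists, EBs included. Hoxb5 (chr11:96303512-96306120, plus strand) had 149 bp in EBs, 769 in progenitors, 1337 in no Dox, then 721 in iHoxc6, 763 in iHoxc9 and 841 in iHoxc10. The EB domain of Hoxb5 lay at -348 to -200 bp from the start site, and in the induced lists the promoter coverage was close to that of progenitors rather than of no Dox. Hoxc5 (chr15:103013815-103017429, plus strand) had 186 bp in EBs, 1089 in progenitors, 1182 in no Dox, then 1603 in iHoxc6, 1164 in iHoxc9 and 1364 in iHoxc10. The domains of Hoxa5 and Hoxc5 formed the widest merged sites of their clusters, 2663 and 2123 bp.

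**Figure D3:**
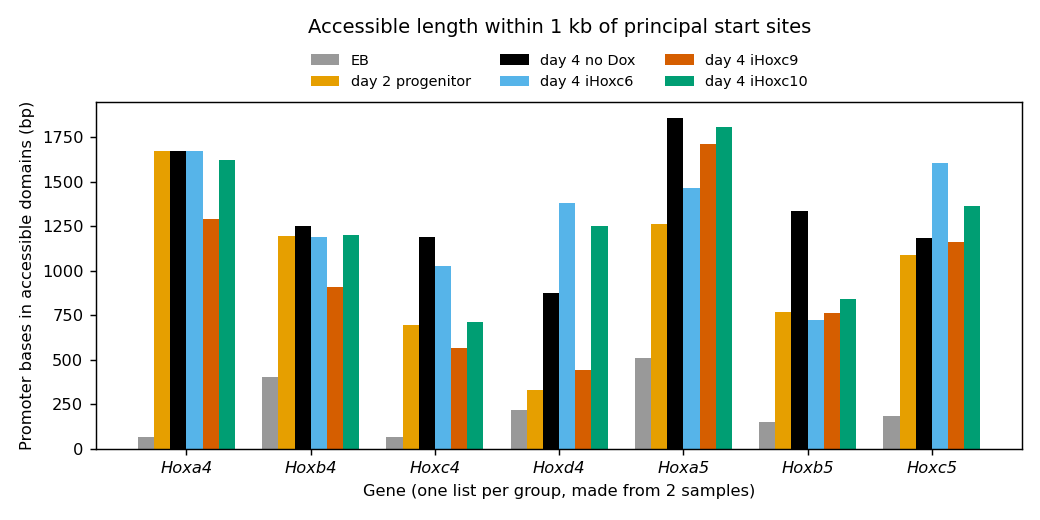
Bases in accessible domains within 1 kb of the principal start sites (y axis, bp) of the 7 genes, for the 6 lists (bars, one list per group). EBs are lowest for each gene, from 69 bp at Hoxa4 and Hoxc4 to 512 bp at Hoxa5; Hoxd4 has 2 principal start sites whose bases are summed.

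Hoxd4 (chr2:74721978-74729160, plus strand) was the member with the clearest difference between start sites. It has 2 principal start sites, that of transcript Hoxd4-201 5096 bp before that of Hoxd4-202. At the downstream start site 217 bp were covered in EBs, 329 in progenitors, 874 in no Dox, 927 in iHoxc6, 837 in iHoxc10 and 0 in iHoxc9. At the upstream start site no base was covered in EBs, progenitors or no Dox, and 454 bp were covered in iHoxc6, 441 in iHoxc9 and 412 in iHoxc10. The promoter domain that Hoxd4 held in iHoxc9 therefore lay at the upstream start site alone.

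**Figure D4:**
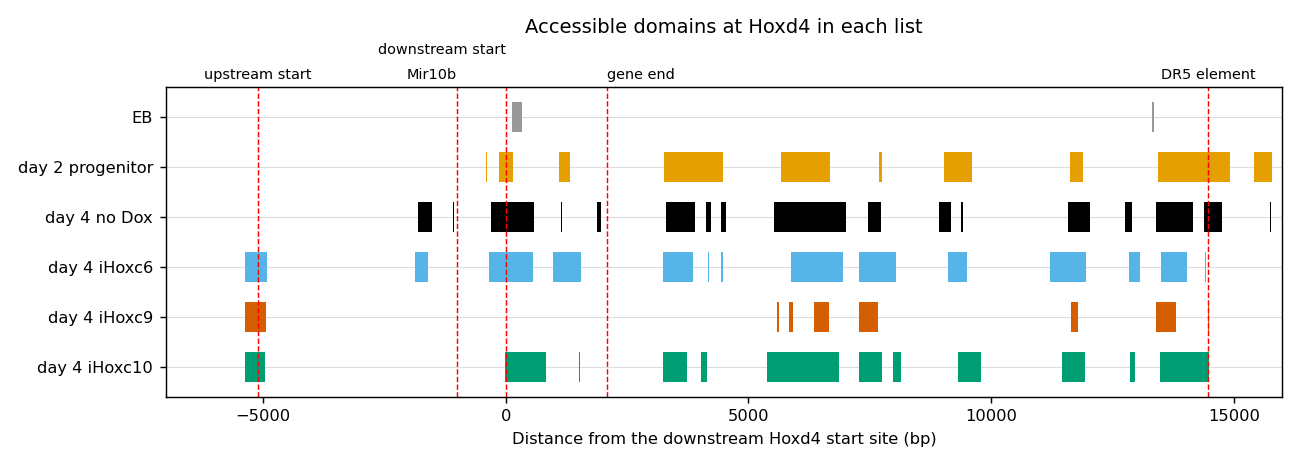
Accessible domains (bars) of each list at Hoxd4, with the distance from the downstream start site, that of Hoxd4-202, in bp on the x axis; dashed lines mark both start sites, the Mir10b hairpin, the end of the gene and the DR5 element. A domain at the upstream start site (-5096 bp) is present in iHoxc6, iHoxc9 and iHoxc10 alone, and iHoxc9 has no domain at the downstream one.

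The site at the upstream Hoxd4 start was 1 of 3 that were present in all 3 induced lists and in neither no Dox, progenitors nor EBs. The 3 made up 2.97% of the 101 merged sites of the regions, against 0.311% of all merged sites, whose widths differ. All 3 overlapped annotated start sites: the upstream principal start of Hoxd4, a start of Hoxc4 that is not its principal one, and that of an antisense transcript. The site in HoxC lay at the start of Hoxc4-202, upstream of the principal Hoxc4 start, and had 189, 275 and 584 bp in iHoxc6, iHoxc9 and iHoxc10. The site in HoxB lay at the start of Hoxb5os, an antisense transcript that begins 3′ of Hoxb5, and had 195, 226 and 400 bp. Of its domains the iHoxc10 one alone reached the Hoxb5os exon. The no Dox control shared its line with iHoxc6 but not with iHoxc9 or iHoxc10. The part of record set and layout in these differences, and of line for iHoxc9 and iHoxc10, was not tested. Dox itself cannot be told apart from the induced transgene here, since no group had Dox without one.

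The bases just before the Hoxd4-201 and Hoxc4-202 starts that all 3 induced domains share are shown, since they are where the induced lists differed from every other list. They are from RefSeq GRCm38, 5′ to 3′ on the strand of the transcript, with each match to ATAAA, the core of the motif of posterior Hox proteins, on either strand in capitals.
Hoxd4-201, chr2:74721708-74721977, plus strand: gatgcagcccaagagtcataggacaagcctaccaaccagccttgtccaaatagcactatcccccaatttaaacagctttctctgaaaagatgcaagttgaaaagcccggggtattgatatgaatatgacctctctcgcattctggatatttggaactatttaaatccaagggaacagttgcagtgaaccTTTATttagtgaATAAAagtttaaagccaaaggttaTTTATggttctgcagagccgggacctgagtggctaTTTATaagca
Hoxc4-202, chr15:103018780-103018933, plus strand: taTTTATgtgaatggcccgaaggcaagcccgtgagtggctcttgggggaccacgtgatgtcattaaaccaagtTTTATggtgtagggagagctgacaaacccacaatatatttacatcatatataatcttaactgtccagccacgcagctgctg

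The printed bases held 4 ATAAA matches before Hoxd4-201 and 2 before Hoxc4-202. Over the whole sites there were 7 and 4, and 0.546% and 11.2% of sites of like width held as many. The Hoxd4 site was thus rich in this motif among sites of its width and the Hoxc4 site less so. GC content was not matched, and it was 43.6% and 48.3% at these sites against a median of 51.2% over all sites. The core TAAT occurred 2 times in the Hoxd4 site and 5 times in the Hoxc4 site. Of sites of like width, 82.3% and 85% held TAAT. Neither site held a PBX-HOX match, which 21.8% and 25.3% of sites of like width did. In the 101 sites, 49 held ATAAA, 52 held the core TAAT and 22 held a PBX-HOX match, against 25%, 40.3% and 8.54% of all sites, whose widths differ.

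Of the 101 merged sites, 13 (12.9%) were in all 6 lists, against 11.2% of all merged sites. A further 12 (11.9%) were in all 5 lists with RA and SAG and not in EBs, against 2.77%. Sites found in 1 list alone were 46 (45.5%), against 63.7%. The share held by the RA and SAG lists without EBs was thus above that of all merged sites, and the share held by all lists was near it. Shares of the 101 sites by the lists that held them, here and elsewhere, were not matched for width.

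The 12 sites of the RA and SAG lists lay 5 in HoxD, 3 in HoxB, 2 in HoxA and 2 in HoxC, and the widest was the widest site of HoxD. That site, chr2:74732468-74734093, covers a start of Hoxd3 transcripts in the stretch 3′ of Hoxd4 and had 994 bp in progenitors, 1491 in no Dox, then 1077 in iHoxc6, 421 in iHoxc9 and 1478 in iHoxc10. In HoxB, the site at chr11:96322004-96323325 just 3′ of Hoxb4 had 424 bp in progenitors, 991 in no Dox, then 1251 in iHoxc6, 180 in iHoxc9 and 533 in iHoxc10. Between Hoxa4 and Hoxa5 the site at chr6:52194187-52195191 had 531, 807, 494, 155 and 978 bp in the same order, and was the narrowest in iHoxc9 as well. Of the 12 sites, iHoxc9 had 10 that were narrower than in no Dox, iHoxc6 8 and iHoxc10 6. Among the 6065 merged sites with this pattern the shares were 80.3%, 63.6% and 72.8%, so the count for iHoxc9 was near the background.

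Of 38 sites held by both progenitors and no Dox, iHoxc9 lacked 13 (34.2%), iHoxc6 4 (10.5%) and iHoxc10 3 (7.89%). Over all merged sites the shares were 27.5%, 11.7% and 26.6%, so iHoxc10 lacked a smaller share here than at large. There were 9 sites (8.91% of 101, against 1.81% of all merged sites) that iHoxc9 lacked while progenitors, no Dox, iHoxc6 and iHoxc10 held them. For iHoxc6 and for iHoxc10 in its place there were 0, against 0.244% and 1.59% of all merged sites. In HoxD these included the downstream Hoxd4 promoter, with 874 bp in no Dox, 911 in iHoxc6, 837 in iHoxc10 and 0 in iHoxc9. They also included a site 3′ of Hoxd4 at chr2:74730314-74731617, which had 1218 bp in progenitors, 799 in no Dox, 685 in iHoxc6 and 624 in iHoxc10. In HoxC the site was chr15:103028977-103029825, between Hoxc5 and Hoxc4, with 188 bp in progenitors and 518 to 848 bp in no Dox, iHoxc6 and iHoxc10. In HoxB 3 of the 9 lay together upstream of Mir10a and 1 lay between Hoxb4 and Hoxb3, at chr11:96324097-96324813. HoxA had none.

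Beside these, 2 sites were in iHoxc9 and iHoxc10 and in no other list. They made up 1.98% of the 101 sites, and 0.534% of all merged sites were in both lists and in neither iHoxc6, no Dox nor progenitors. One, chr6:52200955-52201123, lay next to the start of the antisense transcript Hoxaas3-201 between Hoxa4 and Hoxa5, with 140 bp in iHoxc9 and 169 in iHoxc10. The other, chr11:96325945-96326150, lay between Hoxb4 and Hoxb3, with 48 and 197 bp. A site of 242 bp in iHoxc6 alone overlapped the end of the Hoxc6 coding sequence, of which the iHoxc6 line carries a transgene copy, and its source was not tested. Of the sites in 1 list alone, whatever their width, no Dox had 16 (15.8% of the 101, against 11.1% of all merged sites), iHoxc6 11 (10.9% against 11.3%) and iHoxc10 7 (6.93% against 2.95%). Progenitors had 6 (5.94% against 12%), iHoxc9 3 (2.97% against 5.31%) and EBs 3 (2.97% against 21.1%). Besides the site at Hoxc6, those of at least 150 bp were 3 in no Dox, 2 in iHoxc10, 1 in iHoxc9 and 1 in EBs.

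The miRNA genes in the regions are shown with their mature sequences (RefSeq, GRCm38), seed bases 2 to 8 in capitals, because the HoxB and HoxD miRNAs share a seed and the HoxC one does not.
miR-10a-5p, chr11:96317186-96317208, plus strand: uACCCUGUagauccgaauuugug
miR-10b-5p, chr2:74726074-74726096, plus strand: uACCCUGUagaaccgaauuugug
miR-615-3p, chr15:103014969-103014990, plus strand: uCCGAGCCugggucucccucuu

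The mature miR-10a and miR-10b differed by U12A, counted from 1 at the 5′ end. No list had a domain over either miR-10 hairpin. The gap from the Mir10a hairpin to the nearest domain was 1233 bp in EBs, 314 in progenitors, 201 in no Dox, then 289 in iHoxc6, 877 in iHoxc9 and 225 in iHoxc10. For Mir10b it was 1060, 530, 61, 589, 3921 and 921 bp in the same order. The gap was widest in iHoxc9 among the lists with RA and SAG for both miRNAs, whose nearby sites were among those it lacked. The 92 bp Mir615 hairpin, in the Hoxc5 intron, lay wholly in a domain in EBs, no Dox, iHoxc6, iHoxc9 and iHoxc10, and in progenitors the nearest domain was 77 bp away.

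Beside the other Hox genes, the members had the widest promoter coverage by median in each list. In progenitors the medians were 1089 bp for groups 4 and 5, 872 for groups 1 to 3, 165 for groups 6 to 8 and 98.5 for groups 9 to 13. In no Dox they were 1252, 1035, 427 and 75.5 bp. In EBs groups 9 to 13 had a median of 156 bp and the members 186, and in iHoxc9 and iHoxc10 the median of groups 9 to 13 was 0 against 909 and 1249 for the members. All 7 members held a promoter domain in every list, whereas of 8 genes in groups 1 to 3 it was 5 to 7, of 8 in groups 6 to 8 it was 4 to 8, and of 16 in groups 9 to 13 it was 5 to 12. Of 6 known RA response genes (Rarb, Cyp26a1, Cyp26b1, Dhrs3, Cdx1 and Stra6) a promoter domain was found for 6 in EBs and progenitors, 5 in no Dox, 4 in iHoxc6 and 3 in iHoxc9 and iHoxc10. Their median promoter coverage was 454 bp in EBs, 880 in progenitors and 890 in no Dox, while iHoxc6 had 422, iHoxc9 196 and iHoxc10 346 bp, each below the EB value. Over all protein-coding genes the median was 462 bp in EBs, 474 in iHoxc6, 324 in iHoxc9 and 397 in iHoxc10. It too was thus below the EB value in iHoxc9 and iHoxc10, but not in iHoxc6.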

How the data were processed

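ATAC-seq was done on 2 samples in each of 6 groups. Per the methods, the authors mapped paired-end reads to mm10 (GRCm38) with Bowtie2 and found accessible domains with DomainFinder; the submitters' processing notes name Bowtie2 2.2.2 and Picard 2.8.2. The thresholds are not given in the sources used here. The deposited lists, one per group and each made from both replicates, hold start and end coordinates in bp, with no height, count or p-value; depth is unknown. Starts were read as in BED, and coordinates may be off by 1 bp.

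For autosomes 1 to 19, X and Y, domains were overlapped (at least 1 bp) with GENCODE M21 principal transcripts, promoters being 1 kb on each side of start sites. Overlapping domains of the 6 lists were merged into sites. Motifs were searched on both strands. The members, gene lists and motifs were chosen with earlier results of these data known. The named genes were the 7 members, the other Hox genes by paralog group, the miRNAs of the regions and 6 RA response genes; the named sites were the widest, those of all day 2 and day 4 lists, single-list sites and those that differed between induced lists and no Dox. The pairing of elements with PBX-HOX matches, the ATAAA counts per width and the printed sequences were chosen after their values were seen. With 1 list per group, no test was run. The code for overlaps and motifs was tested on simulated data, in which 1000 checks were run and 0 differed. Python 3.11.15, NumPy 2.4.6, pysam 0.24.0 and Matplotlib 3.10.9 were used. Alternatives concerned domain width, list length, overlap, transcripts, promoter window, stretches, merging and the start site of Hoxd4. The sequence of 1 further site is not reported here.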

Additional observations from a re-analysis of the deposited data

How the results depend on the processing

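No paired analysis was possible because both replicates of a group went into a joint list, and for the same reason no replicate could be left out. Of 178 values recomputed under other choices, 57 could move little or not at all by construction. Of the other 121, 100 moved by less than 1.5 times and kept their direction. Some of these were fixed too: with 7 of 7 genes already counted, a wider window or more transcripts could not change their number. The iHoxc10 list was itself the shortest, so cutting the lists to equal length left it as it was. The 100 is therefore no measure of stability. With domains of at least 150 bp, the regions held 11 domains in EBs, 33 in progenitors, 45 in no Dox, 44 in iHoxc6 and 25 in iHoxc9, and 4 genes had a promoter domain in EBs. With all lists cut to 56232 domains, EBs held 12. Without the stretches, the 6 lists held 12, 15, 16, 17, 11 and 13 domains in EBs, progenitors, no Dox, iHoxc6, iHoxc9 and iHoxc10, and covered 2121, 8331, 11829, 11514, 8000 and 11400 bp, since a smaller region was counted. Covered length relative to no Dox then was 0.179 in EBs, and in iHoxc10 it turned from above to below no Dox, at 0.964. With the downstream start of Hoxd4 alone, its promoter coverage relative to no Dox was 0 in iHoxc9 and turned from 1.43 to 0.958 in iHoxc10, while the other 10 of 12 values kept their direction within 1.5 times. This choice, merging domains 200 bp or less apart and the ratios to no Dox were chosen after seeing the data. The merging could change nothing, since the smallest gap between domains of a list in the regions was 202 bp, and it shows no stability. Promoter windows of 500 bp lay within the regions and could move only the number of genes with a promoter domain. Those of 2 kb lay within the regions save for a short end upstream of Hoxa5, and domain counts and covered length did not change. The number of genes with a promoter domain was 7 in each list with either window. With 2 kb this was fixed in advance, since all 7 were already counted with the narrower main window. Counting a domain only where most of it lay inside the region, or using all annotated transcripts, moved 0 of 23 values each beyond 1.5 times. Depth is unknown, so a missing domain does not show closed chromatin.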
